A study of Mus musculus with 2 samples.

Results

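The MAP kinase phosphatases described here are the 8 genes Dusp1, Dusp4, Dusp5, Dusp6, Dusp7, Dusp8, Dusp10 and Dusp16, of 33696 genes counted in nuclei of the mouse hippocampus. They were chosen by symbol, as named members of 1 gene family, with earlier results of these data known. RNA of single nuclei was sequenced at postnatal day 19 in 2 libraries. The control library came from Cicflox/flox mice, in which the gene for the transcriptional repressor Capicua (CIC) carries sites for Cre recombinase but no Cre is present. The other library came from Emx1-Cre; Cicflox/flox mice, carries the label knockout, and is called the library labelled knockout below. Emx1-Cre acts in the lineage of the dorsal telencephalon, which gives rise to hippocampal excitatory neurons, astrocytes and part of the oligodendrocytes, but not to most inhibitory neurons or to microglia. Per the series' design text, a library pooled tissue of 3 littermates (2 males, 1 female), with 1 hippocampus per animal. Each group was therefore 1 library, so that genotype and library preparation cannot be told apart. No difference could be tested and none has a replicate check.

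Phosphatases of this family remove phosphate from both the threonine and the tyrosine that switch a MAP kinase on, and so end its signal. Dusp6 and Dusp7 act on ERK in the cytoplasm, Dusp5 on ERK in the nucleus, Dusp1 and Dusp4 on several MAP kinases in the nucleus, and Dusp8, Dusp10 and Dusp16 mainly on JNK and p38. Several of the genes are themselves transcribed when the kinases are active, which makes them part of a feedback loop. CIC is a repressor that binds a short octamer in the promoters of genes such as Etv4 and Etv5, and active ERK lifts that repression.

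Promoter sequences from RefSeq (GRCm38.p6) were found for 7 members, without Dusp4, and are shown because the octamer bound by CIC differs among them. Each window runs from 250 bases before to 50 bases after the start of the gene. The octamer was searched in 4 forms, TGAATGAA, TGAATGGA, TCAATGAA and TCAATGGA, on both strands, and 3.84% of 32851 promoter windows of this length held at least 1 match. The Dusp6 window held 2 matches of TCAATGGA and the Dusp16 window held 1 match of TGAATGAA, all on the strand opposite to the gene. The Dusp10 window, shown as that of the member with the widest difference between the libraries, held none, and neither did those of Dusp1, Dusp5, Dusp7 and Dusp8. Capitals mark the octamer as it reads on the strand of the gene, and a match is a description of the letters, not of binding.
Dusp6, chr10:99262981-99263280, plus strand: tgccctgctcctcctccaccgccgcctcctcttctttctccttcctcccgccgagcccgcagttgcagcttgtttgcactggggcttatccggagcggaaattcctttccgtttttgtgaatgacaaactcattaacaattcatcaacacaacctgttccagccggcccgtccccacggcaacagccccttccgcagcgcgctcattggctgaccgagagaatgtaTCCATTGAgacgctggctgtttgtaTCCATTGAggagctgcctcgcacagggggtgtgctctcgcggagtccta
Dusp16, chr6:134792579-134792878, minus strand: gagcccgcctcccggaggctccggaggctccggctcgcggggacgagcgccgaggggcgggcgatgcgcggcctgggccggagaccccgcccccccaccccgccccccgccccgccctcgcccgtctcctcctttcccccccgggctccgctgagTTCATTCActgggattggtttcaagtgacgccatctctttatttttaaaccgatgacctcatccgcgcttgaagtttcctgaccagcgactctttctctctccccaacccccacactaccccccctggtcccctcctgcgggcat
Dusp10, chr1:184034131-184034430, plus strand: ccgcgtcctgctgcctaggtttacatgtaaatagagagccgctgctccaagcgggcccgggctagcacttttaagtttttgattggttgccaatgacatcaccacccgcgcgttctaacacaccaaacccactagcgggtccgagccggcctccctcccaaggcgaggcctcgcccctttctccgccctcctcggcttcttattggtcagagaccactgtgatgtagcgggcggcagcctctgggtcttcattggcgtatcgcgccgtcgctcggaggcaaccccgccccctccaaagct
The Dusp6 matches begin at bases 227 and 252 of the window and lie close together, just before and just after the start of the gene, and the Dusp16 match begins at base 156. A second motif, the cyclic AMP response element TGACGTCA, was chosen after the sequences had been seen. It occurs in 1.79% of the windows, with 2 matches for Dusp8 and 1 for Dusp1.

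The control library gave 21783 nuclei and the library labelled knockout 20569, with medians of 9786 and 8765 UMIs, the counted RNA molecules. The libraries shared 175 cell barcodes, 128 of them among these nuclei. Nuclei were grouped into 15 classes named after marker genes, with "-like" in the name because the names rest on those markers. Each of the 7 granule cell, 6 CA3 and 7 CA1 markers was counted in the class of that name in both libraries. The same markers named the classes, so this is no separate check of the names. Plk5 in both granule clusters and Coch in the CA3-like cluster fell short of the minimum rise or detection set for a marker. Unnamed clusters held 12.99% of control nuclei and 14.7% of the others. The mitochondrial share of UMIs was higher in the library labelled knockout in 15 of 15 classes (range 0.0120% to 0.144%), and the median UMI count was lower there in 14 of 15. Counts of Cic, the targeted gene, do not show the deletion: scaled to 1000000 UMIs, dentate granule-like nuclei of the control had 9.14 and those of the library labelled knockout 12.6, and CA1-like nuclei had 6.56 and 12.7, so that its gene counts were higher there. A count per gene does not show whether the floxed part was removed. Every direction below is therefore that of the library labelled knockout against the control library.

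Levels are given as CPM, counts scaled so that the UMIs of a class sum to 1000000, and differences as the log2 ratio of the library labelled knockout over the control, with 0.5 UMI added to each sum. Brackets hold 95% intervals for counting error alone, which do not cover differences between mice or preparations. The family was sparsely counted in nuclei. Its 8 genes together gave 29.6 CPM in control dentate granule-like nuclei and 40.9 CPM in those of the library labelled knockout, 32.2 and 46.0 in CA3-like, 42.6 and 53.6 in CA1-like, 61.8 and 59.7 in inhibitory-like, and 341.5 and 468.8 in oligodendrocyte-like nuclei. In dentate granule-like and CA3-like nuclei the median member had a log2 difference of 0.67 and 0.51, beside medians of 0.03 and 0.08 over all genes that reached 20 UMIs. Within the granule clusters the medians were smaller. In the cluster that held most nuclei of the library labelled knockout the members' median was -0.03 beside -0.01 over all genes, with 3 of 8 members above 0. In the other, with 180 nuclei of that library, it was 0.30 beside 0.08 over 6 members with 20 UMIs. That median includes Dusp1, with 24 and 1 UMIs, which is above 0 only through the 0.5 UMI added. The clusters split the libraries nearly apart, so comparisons within them cannot decide whether a class difference holds. In CA1-like nuclei the members' median was 0.12 beside 0.10, in inhibitory-like nuclei 0.05 beside 0.05, and in oligodendrocyte-like nuclei, where 5 members had 20 UMIs, 0.22 beside -0.09.

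**Figure D1:**
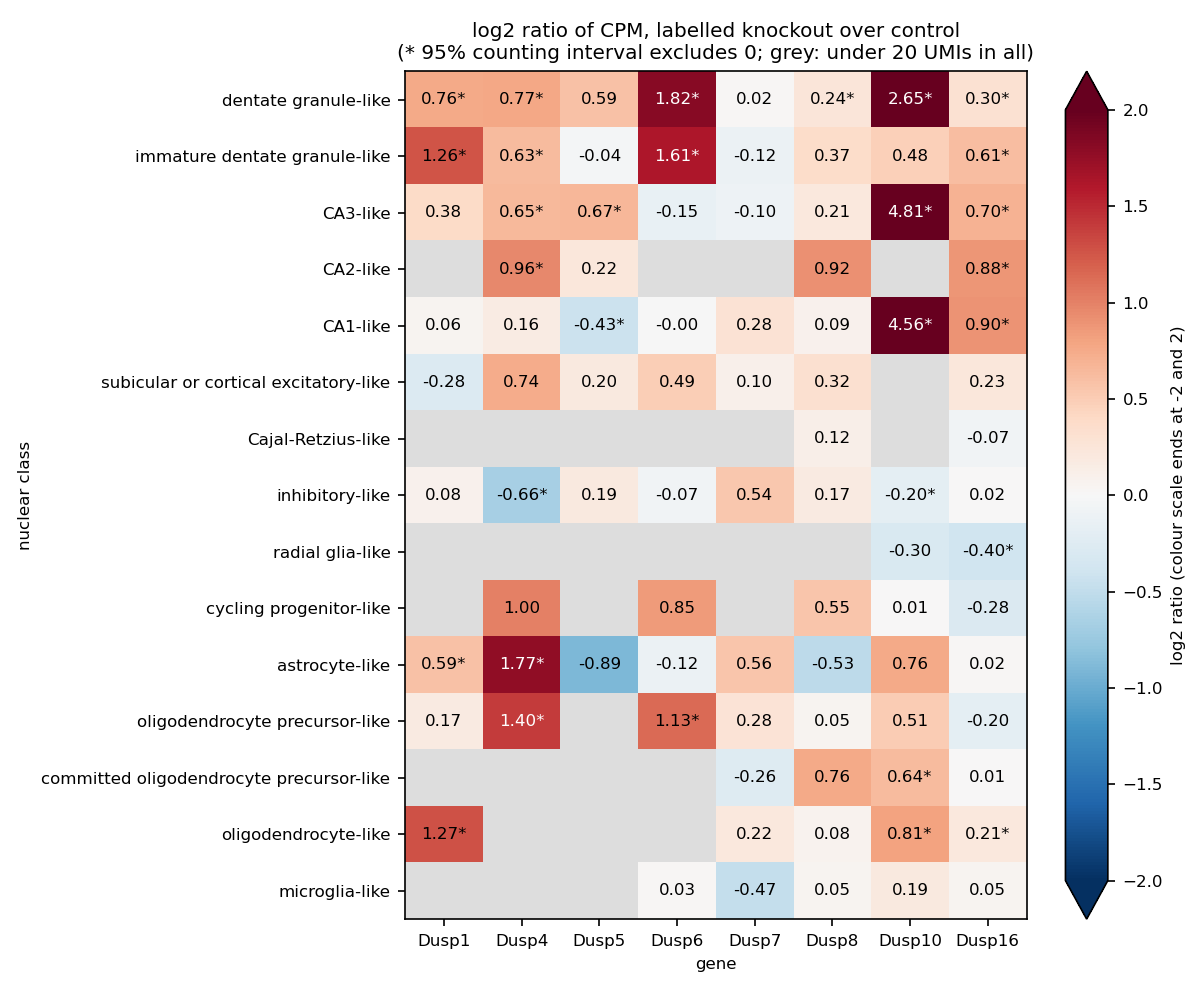
Log2 difference of each member (columns) in each of 15 nuclear classes (rows), library labelled knockout over control, for pairs with 20 or more UMIs in the sum of the libraries. Red is higher and blue lower in the library labelled knockout, and the highest values are those of Dusp10 in CA3-like (4.81) and CA1-like nuclei (4.56).

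A gene was counted as past the size rule when its higher library held at least 50 UMIs and 10 CPM and the levels differed at least 2-fold. It counts genes by size alone and tests nothing. None of the 8 members passed in dentate granule-like nuclei, where 3.28% of genes with the minimum counts did, nor in immature dentate granule-like (0.315%), CA3-like (1.84%), CA1-like (4.13%), inhibitory-like (0.0912%) or oligodendrocyte-like nuclei (3.28%). In oligodendrocyte precursor-like nuclei 1 member passed, Dusp6, beside 0.191% of genes. The counts rest on few members, because only 1 to 3 of the 8 reached 50 UMIs and 10 CPM in any of these classes. With the minimum lowered to 20 UMIs at any CPM, dentate granule-like nuclei had 2 members higher by 2-fold or more, Dusp6 and Dusp10, beside 5.66% of genes in either direction. Under that rule 2 were higher in immature dentate granule-like nuclei, Dusp1 and Dusp6 (1.56%), 1 in CA3-like nuclei, Dusp10 (3.99%), 1 in CA1-like nuclei, Dusp10 (6.78%), 1 in oligodendrocyte precursor-like nuclei, Dusp6 (1.21%), and 1 in oligodendrocyte-like nuclei, Dusp1 (5.12%). In inhibitory-like nuclei none was (1.14%), and no member was 2-fold lower in any of the 7 classes. With the first minimum and a fold of 1.5, 1 member was past the rule in dentate granule-like nuclei (Dusp4, beside 7.66% of genes), 1 in CA3-like (Dusp16, 6.19%), 1 in CA1-like (Dusp16, 10.6%), 1 in oligodendrocyte-like (Dusp10, 9.5%), 1 in immature dentate granule-like (Dusp16, 1.91%), 1 in oligodendrocyte precursor-like (Dusp6, 2.15%) and none in inhibitory-like nuclei (0.547%). Over all 120 pairs of a member and a class, the counting interval lay above 0 in 28 and below 0 in 4. Among the 89 pairs with at least 20 UMIs it lay above 0 in 26 and below 0 in 4, beside 14.2% above and 9.15% below over the 207518 such pairs of any gene and class. All pairs share the same 2 libraries, so they are not independent.

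Dusp6, a cytoplasmic ERK phosphatase, was higher in the library labelled knockout in dentate lineages and in oligodendrocyte precursors. It showed no difference beyond counting error where it was most abundant. In dentate granule-like nuclei the control had 20 UMIs (0.355 CPM) and the library labelled knockout 52 (1.27 CPM), a log2 difference of 1.82 (1.07 to 2.66). These 2 levels had intervals that did not overlap. An estimate of free RNA, the RNA that leaks from other cells, was 39.2 UMIs (0.696 CPM) in the control, above what was counted, and 33.1 of the 52 UMIs (0.809 CPM) in the library labelled knockout. Female nuclei, from 1 mouse per library, gave 2.15 (0.97 to 3.67), and male nuclei, from 2 mice per library, gave 1.66 (0.46 to 3.10). Dentate granule-like nuclei were spread unevenly over 2 clusters: 3485 of the 4602 control nuclei fell in one, with 180 from the library labelled knockout, and 3506 of 3686 from that library fell in the other, with 1117 control nuclei. In the second of these clusters Dusp6 had 3 and 48 UMIs, with a log2 difference of 2.16 (0.73 to 4.69).

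The same gene had 12 and 32 UMIs in immature dentate granule-like nuclei, 0.991 and 3.11 CPM, a log2 difference of 1.61 (0.66 to 2.74). The estimate of free RNA there was 1.28 CPM in the control, again above the count, and 1.98 CPM in the library labelled knockout, and markers of unrelated classes stood at 30.9% and 43.97% of their level in the whole library. The part of free RNA in the granule counts of Dusp6 was not tested. In oligodendrocyte precursor-like nuclei it had 30 and 64 UMIs, 5.50 and 12.2 CPM, or 1.13 (0.50 to 1.82), the difference that passed the size rule, though it did not under 6 of 13 alternatives. In 3 of those 6 the difference stayed over 2-fold and the minimum counts were missed. Within single sexes that value was smaller, at 0.84 (-0.42 to 2.32) in female and 0.69 (-0.15 to 1.58) in male nuclei, and both intervals included 0. Nuclei that passed no sex call were part of the pooled sums only. Dusp6 was most abundant in microglia-like nuclei, with 29.96 and 30.5 CPM, followed by astrocyte-like nuclei with 16.4 and 15.1. CA1-like nuclei, with 322 and 221 UMIs, stood at 9.78 and 9.74 CPM. Levels in these 3 classes differed by less than the counting error, with log2 differences of 0.03 (-0.42 to 0.47), -0.12 (-0.49 to 0.23) and -0.00 (-0.26 to 0.25). In CA3-like nuclei the values were 3.35 and 3.01 CPM.

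Dusp7, the other cytoplasmic ERK phosphatase, showed no difference beyond counting error. Its highest levels were in microglia-like nuclei, with 29.96 and 21.5 CPM, and in oligodendrocyte-like nuclei, with 22.4 and 26.0 CPM. Dentate granule-like nuclei held 275 and 202 UMIs, 4.88 and 4.94 CPM, a log2 difference of 0.02 (-0.25 to 0.28). CA3-like nuclei gave -0.10 (-0.65 to 0.44), and CA1-like nuclei gave 0.28 (-0.08 to 0.64). In none of the 15 classes did the interval of Dusp7 exclude 0.

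**Figure D2:**
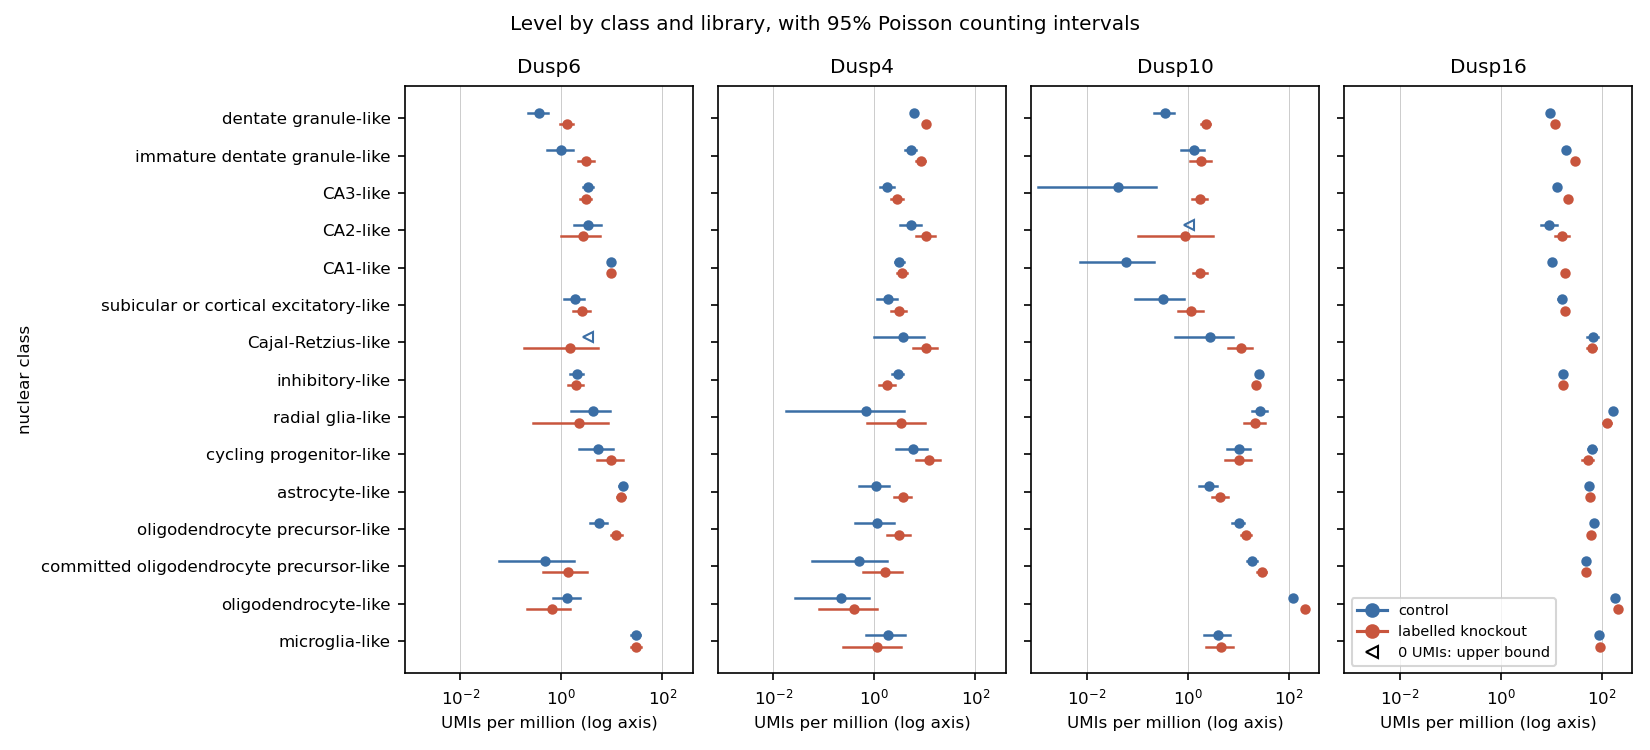
Level of Dusp6, Dusp4, Dusp10 and Dusp16 in CPM (log axis) in each nuclear class, control in blue and library labelled knockout in red, with 95% Poisson intervals for counting error; open triangles are upper bounds where a class held 0 UMIs. Dusp10 spans the widest range, from 0 control UMIs in CA2-like nuclei to 215.7 CPM in oligodendrocyte-like nuclei of the library labelled knockout.

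Dusp4, a nuclear phosphatase for ERK and other MAP kinases, was the best counted of the inducible members in the dentate gyrus and was higher there in the library labelled knockout. Dentate granule-like nuclei held 341 control UMIs and 422 in the library labelled knockout, 6.05 and 10.3 CPM, a log2 difference of 0.77 (0.56 to 0.98). The log2 difference was 0.88 (0.49 to 1.28) in female and 0.72 (0.41 to 1.02) in male nuclei. It was 0.67 (0.33 to 1.05) and 0.99 (0.28 to 1.58) within the 2 granule clusters, the latter from 261 and 23 UMIs. The clusters split the libraries nearly apart and the sexes come from the same pools, so none of these values is a separate check. Dusp4 was also higher in immature dentate granule-like nuclei, with 5.28 and 8.17 CPM, in CA3-like nuclei, with 1.78 and 2.80, and in CA2-like nuclei, with 5.40 and 10.6. Its log2 differences there were 0.63 (0.14 to 1.12), 0.65 (0.04 to 1.27) and 0.96 (0.04 to 1.92). Another scaling of the libraries (TMM) moves the CA3-like and CA2-like values by -0.08 and -0.13, which puts 0 inside both of those intervals. The higher level in these classes therefore depends on scaling to total UMIs. In CA1-like nuclei the interval included 0, at 0.16 (-0.29 to 0.59).

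In control nuclei the level of Dusp4 was highest in dentate granule-like nuclei, and in the library labelled knockout it was highest in cycling progenitor-like nuclei, which had 9 and 15 UMIs, 5.89 and 12.1 CPM and a log2 difference of 1.00 (-0.25 to 2.41). Cajal-Retzius-like nuclei had 4 and 14 UMIs, 3.65 and 10.5 CPM, or 1.40 (-0.15 to 3.58). Both of these intervals included 0, and the levels of the first 3 classes in each library had overlapping intervals. Astrocyte-like nuclei had 10 and 28 UMIs, a log2 difference of 1.77 (0.73 to 3.02) at 1.05 and 3.70 CPM. The estimate of free RNA there was 13.3 UMIs in the control, above the count, and 11.9 of the 28 UMIs in the library labelled knockout. Its part in these counts was not tested. In inhibitory-like nuclei, which lie outside most of the Emx1 lineage, Dusp4 was lower in the library labelled knockout, with 60 and 33 UMIs and a log2 difference of -0.66 (-1.33 to -0.04). Within the inhibitory-like cluster with 335 and 411 nuclei the Dusp4 value was -1.06 (-2.08 to -0.16). In the other inhibitory-like clusters it was -0.24, -0.98 and 0.41, with intervals that included 0. The lowest level was in oligodendrocyte-like nuclei, with 2 and 3 UMIs.

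Dusp5, the nuclear ERK phosphatase, was highest in CA2. Its level was 20.5 CPM in control CA2-like nuclei and 23.8 CPM in those of the library labelled knockout, a log2 difference of 0.22 (-0.32 to 0.74). The next class in each library stood at 5.28 CPM (CA1-like, control) and 5.60 CPM (CA3-like, library labelled knockout), with intervals that did not overlap those of CA2-like nuclei. Between the libraries Dusp5 differed in opposite directions in the neighbouring fields: CA3-like nuclei held 83 and 108 UMIs, a log2 difference of 0.67 (0.24 to 1.10), and CA1-like nuclei held 174 and 89, a log2 difference of -0.43 (-0.81 to -0.05). The CA1 value was carried by male nuclei, with -0.88 (-1.44 to -0.37), while female nuclei gave 0.47 (-0.33 to 1.26). The CA3 value was 0.64 in female and 0.77 in male nuclei, and it was 0.24 when nuclei were clustered without the genes past the size rule. The 5 CA2 markers summed to 22.7 and 26.5 CPM in CA3-like nuclei (5 of 5 higher) and to 15.9 and 16.5 in CA1-like nuclei (2 of 5). The part of that shift in the Dusp5 values was not tested.

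Dusp1, an immediate early gene whose product acts in the nucleus, was sparsely counted in neurons, and its highest level in the library labelled knockout was in astrocyte-like nuclei, with 8.31 and 12.6 CPM and a log2 difference of 0.59 (0.15 to 1.04). Within single sexes that interval included 0, at 0.10 (-0.90 to 1.09) in female and 0.57 (-0.10 to 1.25) in male nuclei. Dusp1 was also higher in dentate granule-like nuclei, with 39 and 48 UMIs and a log2 difference of 0.76 (0.12 to 1.41). Within the granule clusters it was -0.02 (-0.85 to 0.96) in the one with most of the library labelled knockout and 0.44 (-5.48 to 2.50) in the other. The latter rests on 24 and 1 UMIs, 0.547 and 0.505 CPM, so its sign comes from the 0.5 UMI added. Immature dentate granule-like nuclei held 14 and 29 UMIs, or 1.26 (0.32 to 2.32), with 0.92 (-0.12 to 2.09) and 2.17 (-0.10 to 5.72) in their clusters, and oligodendrocyte-like nuclei 15 and 31, or 1.27 (0.36 to 2.29). Within the oligodendrocyte-like clusters it was 1.99 (0.55 to 3.90), with 888 and 586 nuclei, and 0.40 (-0.80 to 1.73), with 225 and 302 nuclei. In CA1-like nuclei the pooled log2 difference of 0.06 (-0.45 to 0.55) hid a split between the sexes. Female nuclei had 10 control UMIs against 24, a log2 difference of 1.69 (0.61 to 2.96), and male nuclei had 48 and 21, a log2 difference of -0.77 (-1.60 to -0.02). A fixed list of 18 activity and handling genes, which includes Fos, Arc and Egr1, was divided in CA1-like nuclei too, with a median log2 difference of 0.44 in female and -0.52 in male nuclei over 15 measured genes. In the gene model of GENCODE M21 (GRCm38), Dusp1 spans 56.5 kb and overlaps Ergic1 on the opposite strand and a further counted gene on its own strand. Ergic1 had counts of its own, 3208 and 2577 UMIs in dentate granule-like nuclei. Whether the overlaps affect the counts of Dusp1 was not tested. The overlapping same-strand gene was at 0 UMIs in both libraries in dentate granule-like, CA3-like, CA1-like and oligodendrocyte-like nuclei.

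**Figure D3:**
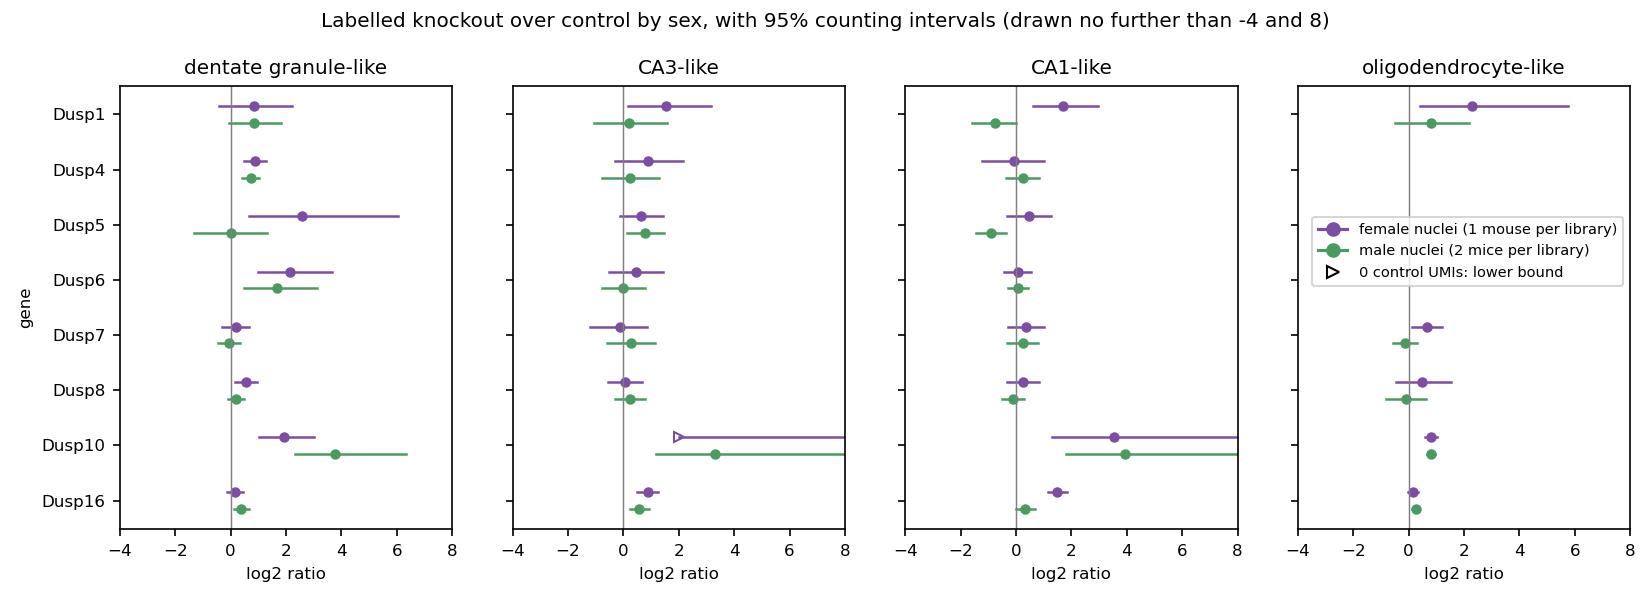
Log2 difference of each member, library labelled knockout over control, in female nuclei (purple, 1 mouse per library) and male nuclei (green, 2 mice per library) of 4 classes, with 95% counting intervals. Dusp4, Dusp6 and Dusp10 lie on the same side of 0 in both sexes in dentate granule-like nuclei, whereas Dusp1 in CA1-like nuclei lies at 1.69 in female and -0.77 in male nuclei.

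Dusp10, a phosphatase of JNK and p38, is a gene of oligodendrocytes in this tissue, and there it was higher in the library labelled knockout. Oligodendrocyte-like nuclei held 1131 control UMIs and 1667 in the library labelled knockout, 123.4 and 215.7 CPM, a log2 difference of 0.81 (0.70 to 0.92). The log2 difference was 0.79 (0.58 to 1.01) in female and 0.80 (0.65 to 0.95) in male nuclei. At least 1 UMI was found in 44.6% of control nuclei and 64.1% of the others. After each nucleus was thinned to 2000 UMIs, which left out 11 and 15 shallower nuclei, the shares were 17.5% and 28.6%. In CA3-like control nuclei, which were deeper (medians of 24472 against 7917 UMIs), 0.107% had a UMI. The 7 oligodendrocyte markers summed to 22060 and 21958 CPM in the oligodendrocyte-like nuclei. Both oligodendrocyte-like clusters were higher, at 0.86 (0.69 to 1.02) and 0.48 (0.33 to 0.64). Committed oligodendrocyte precursor-like nuclei had 18.8 and 29.3 CPM, a log2 difference of 0.64 (0.21 to 1.08). They came second to oligodendrocyte-like nuclei in the library labelled knockout, while in the control radial glia-like and inhibitory-like nuclei stood above them.

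In excitatory neurons Dusp10 was near absent from the control library and was counted in the library labelled knockout. CA3-like nuclei held 1 control UMI and 34 UMIs in the library labelled knockout, 0.0424 and 1.76 CPM, a log2 difference of 4.81 (2.80 to 10.7). CA1-like nuclei held 2 and 40 UMIs, 0.0607 and 1.76 CPM, a log2 difference of 4.56 (2.91 to 7.95). Dentate granule-like nuclei held 20 and 93 UMIs, 0.355 and 2.27 CPM, a log2 difference of 2.65 (1.97 to 3.46). None of these 3 pairs of intervals overlapped. Both sexes took part: CA3-like nuclei had 0 and 11 UMIs in female and 1 and 16 in male nuclei, and CA1-like nuclei had 1 and 12 in female and 1 and 17 in male nuclei. In dentate granule-like nuclei the log2 difference was 1.93 (1.03 to 3.00) in female and 3.77 (2.31 to 6.32) in male nuclei, from 13 and 39 and from 3 and 36 UMIs. Within the granule cluster that held most of the library labelled knockout it was 1.55 (0.63 to 2.80). In the other granule cluster it was 3.85 (2.21 to 5.31), from 11 and 7 UMIs.

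These neuronal levels are low and lie near the estimate of free RNA. A subtraction that scaled the whole library to the median level of markers of unrelated classes put free Dusp10 RNA at 0.942 CPM in control and 1.54 CPM in labelled knockout CA3-like nuclei, at 0.999 and 1.495 CPM in CA1-like and at 1.35 and 2.30 CPM in dentate granule-like nuclei. The observed levels in the library labelled knockout were above that estimate in both CA fields and below it in dentate granule-like nuclei. The control levels were below it in all 3, with 1 UMI observed in CA3-like nuclei where the estimate was 22.2, so the estimate was too high for Dusp10 there. The subtraction left 0 UMIs in dentate granule-like nuclei of both libraries, so that no difference can be given for them after it. In the library labelled knockout it left 4.23 UMIs in CA3-like nuclei and 6.08 in CA1-like nuclei, with 0 in the control. The 7 oligodendrocyte markers were lower in the library labelled knockout in CA3-like and dentate granule-like nuclei and slightly higher in CA1-like nuclei. They summed to 83.3 and 65.4 CPM in CA3-like nuclei (0 of 7 higher in the library labelled knockout), 104.1 and 110.6 in CA1-like (2 of 7) and 187.8 and 142.7 in dentate granule-like nuclei (0 of 7), and none of the 7 was at 0. The 8 markers of inhibitory neurons, which also express Dusp10, summed to 21.8 and 20.6 CPM in CA3-like nuclei (5 of 8 higher) and to 23.2 and 27.3 in CA1-like nuclei (7 of 8). In dentate granule-like nuclei they summed to 1622 and 2021 CPM, but only 3 of 8 were higher, so that most of the markers did not share the rise of their sum. Per 1000 UMIs of the oligodendrocyte markers, Dusp10 had 5.60 control and 9.82 labelled knockout UMIs in oligodendrocyte-like nuclei themselves. CA3-like nuclei had 0.509 and 26.9 on this scale, CA1-like nuclei 0.583 and 15.9, and dentate granule-like nuclei 1.89 and 15.9. The part of free RNA in the neuronal Dusp10 counts was not tested. In dentate granule-like nuclei the markers of immature granule cells were also higher, 105.0 and 173.7 CPM (6 of 6), and those of mature granule cells lower, 1608 and 996.2 CPM (1 of 7 higher). The immature markers were likewise higher in CA3-like nuclei, 80.7 and 121.2 CPM (5 of 6), and in CA1-like nuclei, 48.2 and 109.8 CPM (5 of 6). The part of that shift in the members' values was not tested.

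In inhibitory, radial glial and immature granule classes the intervals of Dusp10 included 0 or lay below it. Inhibitory-like nuclei had 26.1 and 22.7 CPM, a log2 difference of -0.20 (-0.39 to -0.02), and radial glia-like nuclei had 26.9 and 21.5 CPM, or -0.30 (-1.19 to 0.51). Within the inhibitory-like cluster with 167 and 180 nuclei the Dusp10 value was -0.61 (-1.13 to -0.11). In the other inhibitory-like clusters it was -0.19, -0.26 and -0.04, with intervals that included 0. Immature dentate granule-like nuclei held 16 and 19 UMIs, with a log2 difference of 0.48 (-0.55 to 1.54). In GENCODE M21, 1700056E22Rik overlaps Dusp10 on the opposite strand, and it had 0 UMIs in both libraries in dentate granule-like and CA1-like nuclei and 0 and 2 in CA3-like nuclei.

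Dusp16, another phosphatase of JNK and p38, was the most abundant member by UMIs and was higher in hippocampal pyramidal nuclei of the library labelled knockout. CA1-like nuclei held 336 control UMIs and 432 in the library labelled knockout, 10.2 and 19.0 CPM, a log2 difference of 0.90 (0.69 to 1.11). CA3-like nuclei held 306 and 408, 12.98 and 21.1 CPM, or 0.70 (0.49 to 0.92), and CA2-like nuclei 32 and 38, or 0.88 (0.16 to 1.60). The CA3 value was 0.87 (0.51 to 1.24) in female and 0.56 (0.22 to 0.91) in male nuclei. The CA1 value was larger in female nuclei, at 1.49 (1.14 to 1.84), than in male nuclei, at 0.34 (-0.01 to 0.68), and the male interval included 0. Immature dentate granule-like nuclei stood at 19.6 and 30.05 CPM, a log2 difference of 0.61 (0.36 to 0.86). The estimate of free Dusp16 RNA in that class was 7.97 CPM in the control and 14.0 CPM in the library labelled knockout. Its part in this difference was not tested. In mature dentate granule-like nuclei the pooled log2 difference was 0.30 (0.12 to 0.48), but within the 2 granule clusters it was -0.05 (-0.31 to 0.22) and 0.16 (-0.62 to 0.79).

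Dusp16 was most abundant in glia. Oligodendrocyte-like nuclei had 184.0 and 213.2 CPM, a log2 difference of 0.21 (0.11 to 0.31), and within their 2 clusters it was 0.11 (-0.04 to 0.26) and -0.01 (-0.14 to 0.12). Radial glia-like nuclei were lower in the library labelled knockout, with 169.4 and 128.1 CPM and a log2 difference of -0.40 (-0.74 to -0.08). That value was -1.08 (-1.80 to -0.45) in female nuclei, from 1 mouse per library, and -0.25 (-0.77 to 0.24) in male nuclei. The 6 radial glia markers were lower in this class too, with sums of 1591 and 1226 CPM (1 of 6 higher in the library labelled knockout). The part of that shift in the Dusp16 value was not tested. Astrocyte-like nuclei stood at 57.3 and 58.0 CPM, microglia-like nuclei at 88.0 and 91.2 CPM, and inhibitory-like nuclei at 17.2 and 17.4 CPM.

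Dusp8, the third phosphatase of JNK and p38, was counted in all 15 classes. Its level ran from 3.62 to 13.7 CPM over the 15 control classes and from 3.04 to 15.0 CPM in the library labelled knockout, highest in Cajal-Retzius-like nuclei in both. In the library labelled knockout the interval of the lowest class, astrocyte-like nuclei (1.93 to 4.56 CPM), did not overlap that of the highest (9.16 to 23.2 CPM). Dentate granule-like nuclei held 409 and 350 UMIs, 7.26 and 8.55 CPM, a log2 difference of 0.24 (0.03 to 0.45), with 0.55 in female and 0.19 in male nuclei. Within the granule clusters the difference was below 0, at -0.03 (-0.34 to 0.30) and -0.23 (-1.31 to 0.57). CA3-like nuclei gave 0.21 (-0.13 to 0.55), and CA1-like nuclei gave 0.09 (-0.20 to 0.37).

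**Figure D4:**
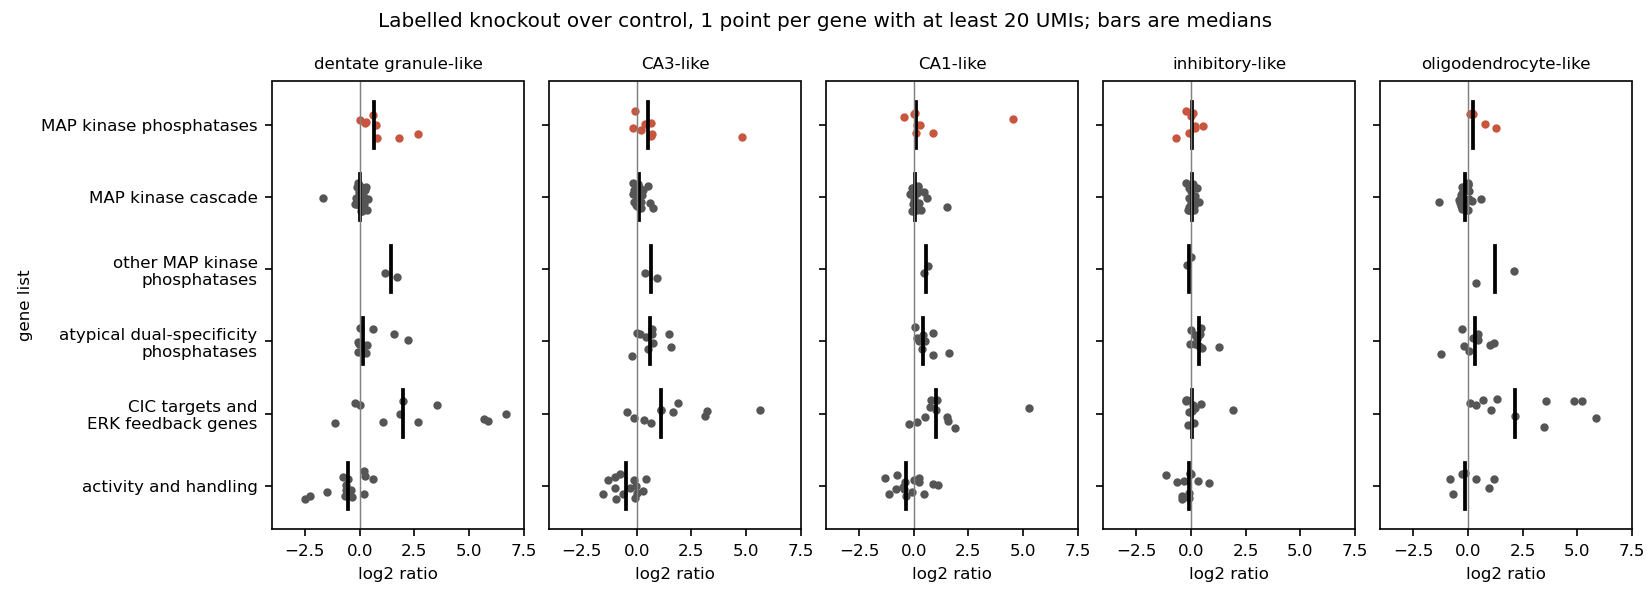
Log2 difference, library labelled knockout over control, of the 8 members (red) and of the genes of 5 fixed lists (grey) with at least 20 UMIs in 5 classes; black bars are medians. In dentate granule-like nuclei the members' median of 0.67 lies between those of the MAP kinase cascade (0.04) and of CIC targets and ERK feedback genes (1.98). Within the granule cluster with most nuclei of the library labelled knockout the members' median was -0.03. The granule clusters split the libraries nearly apart, so that value cannot decide whether the class median holds.

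Of 25 genes of the MAP kinase cascade, from Ras to ERK, JNK and p38, none passed the size rule in dentate granule-like, CA3-like or CA1-like nuclei, and their medians were 0.04, 0.10 and 0.06 beside 0.67, 0.51 and 0.12 for the members, none of which passed there either. In oligodendrocyte-like nuclei 1 of the 25 passed, Ksr1, a scaffold of the ERK cascade, with 35.0 and 13.8 CPM and a log2 difference of -1.33 (-1.67 to -1.02).

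Of 5 other phosphatases of MAP kinases, Dusp2, Dusp9, Ptprr, Ptpn5 and Ptpn7, 2 had at least 20 UMIs in dentate granule-like nuclei, and both passed the size rule. Ptprr, a tyrosine phosphatase of ERK and p38, had 153.5 and 340.2 CPM, a log2 difference of 1.15 (1.11 to 1.19). Ptpn5, which encodes the striatal-enriched phosphatase STEP, had 26.6 and 85.9 CPM, or 1.69 (1.60 to 1.78). In CA3-like nuclei the same genes had 0.39 and 0.92, and in CA1-like nuclei 0.45 and 0.63, short of the size rule. In oligodendrocyte-like nuclei Ptprr had 21.5 and 93.9 CPM, a log2 difference of 2.12 (1.90 to 2.36), and in inhibitory-like nuclei its log2 difference was -0.17 (-0.25 to -0.09). Of 11 atypical dual-specificity phosphatases, Dusp15 alone passed, in dentate granule-like nuclei with 6.17 and 28.6 CPM, a log2 difference of 2.21 (2.04 to 2.39), and in oligodendrocyte-like nuclei with 111.5 and 258.6 CPM, or 1.21 (1.10 to 1.32). Over those with at least 20 UMIs, their median was 0.16 in dentate granule-like nuclei, below the 0.67 of the members. It lay above the members' median in CA3-like (0.60 beside 0.51), CA1-like (0.41 beside 0.12), inhibitory-like (0.39 beside 0.05) and oligodendrocyte-like nuclei (0.32 beside 0.22).

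The 11 CIC targets and ERK feedback genes outside the family had a higher median log2 difference than the members in dentate granule-like, CA3-like, CA1-like and oligodendrocyte-like nuclei, but not in oligodendrocyte precursor-like nuclei, where it was 0.06 beside 0.28, nor in inhibitory-like nuclei, where both were 0.05. In dentate granule-like nuclei 7 were higher and 1 lower past the size rule, with Etv4 at 1.08 and 112.6 CPM (log2 difference 6.69), Etv5 at 1.53 and 90.6 CPM (5.88), Shc3 at 22.4 and 259.2 CPM (3.53) and Spred3 at 8.84 and 55.6 CPM (2.65). The lower one was Spry2, a feedback inhibitor of receptor tyrosine kinase signalling, with 12.6 and 5.82 CPM and a log2 difference of -1.11, named here beside the rule as the only one in that direction. In CA3-like nuclei 6 of the 11 were higher, in CA1-like nuclei 4, in oligodendrocyte-like nuclei 7 and in inhibitory-like nuclei 0. The list's medians were 0.05 in inhibitory-like, 1.00 in CA1-like, 1.13 in CA3-like, 1.98 in dentate granule-like and 2.16 in oligodendrocyte-like nuclei. In microglia-like nuclei, which also lie outside the Emx1 lineage, the median was 0.76 over 10 measured genes, beside 0.03 over all genes. There 2 of the list were higher past the size rule, beside 0.165% of genes. The part of free RNA in these microglia-like values was not tested. Activity and handling genes had medians of -0.37 in CA1-like, -0.47 in CA3-like, -0.55 in dentate granule-like, -0.24 in CA2-like, -0.12 in immature dentate granule-like and -0.03 in subicular or cortical excitatory-like nuclei. The remaining classes lay on both sides of 0, from -0.26 in cycling progenitor-like to 0.72 in radial glia-like nuclei, the latter over 3 measured genes. In male nuclei the medians of this list were -0.52 in CA1-like, -0.76 in CA3-like and -0.66 in dentate granule-like nuclei, whereas in female nuclei they were 0.44 (11 of 15 genes higher), 0.11 (8 of 14) and -0.22 (4 of 15). Past the size rule in CA1-like nuclei were Jun, with a log2 difference of 1.11, and Egr1, with -1.29, and in oligodendrocyte-like nuclei Arc, at 4.47 and 10.4 CPM.

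Across the 15 classes and both libraries, each member's pattern of log2(CPM + 5) was compared with that of 13565 genes. The 30 points share class and library, and the correlations are descriptions without a test. The gene most like Dusp5 was Amigo2 (Pearson's r 0.87), followed by Fyb2 (0.86) and Rgs14 (0.86), of which Amigo2 and Rgs14 are among the markers that named the CA2-like class, so their likeness follows from the high level of Dusp5 there. Dusp10 was most like Gm34917 (0.89), Gm4221 (0.88) and Enpp2 (0.88), the last an oligodendrocyte gene in brain. Dusp16 was most like Rbms2 (0.95), Rab33b (0.94) and Npc1 (0.94), and Dusp7 like Cyp27a1 (0.93), Pla2g4a (0.93) and Tmem63a (0.92). Dusp1 came closest to Ivd (0.88), Dusp6 to Il15 (0.85) and Dusp8 to Slc25a27 (0.82). Among the members themselves the closest pair was Dusp10 and Dusp16 (0.71), which share their highest level in oligodendrocyte-like nuclei.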

How the data were processed

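Single-nucleus RNA was measured in 2 pooled hippocampal libraries. UMI counts of each gene in each nucleus were deposited raw, made with Cell Ranger 8.0.1 on mm39 per the submitters' processing notes; the authors applied no normalization to them. No coordinates on mm39 are given, because the annotation used here was of GRCm38.

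Nuclei with under 500 genes or over 5% mitochondrial UMIs were left out, as were doublets called with Scrublet in scanpy 1.11.5 (expected rate 0.1): 3277 control and 2474 others. In Python 3.11.15 both libraries were clustered together on 3000 variable genes (without the members, sex-linked and mitochondrial genes), 30 principal components, 15 neighbours and Leiden resolution 1 (leidenalg 0.10.2, igraph 0.11.9). Clusters were named from 22 marker sets. A cluster stayed unnamed under a mean marker log2 fold of 1, a minimum set after the clusters were seen, which kept out 11.1% of control nuclei and 13.00% of the others; with a minimum of 0.5, 1.71% and 1.88% would have been named.

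UMIs were summed per class and library. Intervals are exact (Poisson, conditional binomial, Clopper-Pearson). A nucleus counted as female if it held 2 or more Xist UMIs without Y-linked ones, and as male if it held Y-linked UMIs without Xist; the sexes are checks within a pool, not replicates. Scripts were tested on simulated data. The members and lists were chosen with earlier results of these data known. All members were named, though not every class of each is given in the text. Genes of other lists were named where the size rule picked them in granule, CA3, CA1 or oligodendrocyte classes, up to 4 per list and class. Of the CIC targets and ERK feedback genes, only counts are given for the CA3, CA1 and oligodendrocyte classes. The values of Ptprr and Ptpn5 short of that rule were added after they were seen. Some values are not reported here. No test across genes was run, since each group is 1 library. Alternatives covered doublets, filters, scaling, thinning, weighting, sex, clustering, free RNA, added UMIs and the size rule.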

Additional observations from a re-analysis of the deposited data

Results flagged for a closer look

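Dusp1 in CA1-like nuclei differed in opposite directions in the sexes: the log2 difference of the library labelled knockout over the control was 1.69 in female nuclei, from 1 mouse per library, and -0.77 in male nuclei, from 2 mice per library. The counting intervals, 0.61 to 2.96 and -1.60 to -0.02, lay on opposite sides of 0. The difference between the sexes was not tested, and sex and mouse cannot be told apart within these pools.

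Dusp16 was also higher in a cluster that carried no class name and entered no comparison, with 140 control UMIs and 272 in the library labelled knockout, 8.87 and 18.7 CPM, a log2 difference of 1.07 (0.77 to 1.38). Its nuclei numbered 736 and 771. The difference was not tested.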

How the results depend on the processing

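No paired analysis was possible because each group is 1 library. The counts of members past the size rule were 0 in dentate granule-like, CA3-like, CA1-like, inhibitory-like and oligodendrocyte-like nuclei. With a minimum of 20 UMIs and none on CPM they became 2 in dentate granule-like and 1 each in CA3-like, CA1-like and oligodendrocyte-like nuclei. With a fold of 1.5 they became 1 in each of these 4 classes: Dusp4, Dusp16, Dusp16 and Dusp10. In CA1-like nuclei Dusp16 also passed after thinning, in female nuclei alone and after free RNA was subtracted, each giving 1. By construction these alternatives change the minimum, the nuclei or the background; for the last 3 the cause was not tested. Log2 differences were recomputed for every member in these 5 classes and elsewhere for the pairs whose interval excluded 0. Of 690 values, 640 stayed within the counting interval and 50 did not; 6 more are not given, because thinning or subtraction of free RNA left 0 UMIs in both libraries. For the 32 pairs whose interval excluded 0, 406 of 407 values kept their sign; the exception was Dusp5 in CA1-like nuclei, 0.47 in female nuclei alone. For 2 pairs, in CA2-like nuclei, 6 values could not be given, since no such class was named with doublets kept or in either other clustering. Dusp6 in oligodendrocyte precursor-like nuclei passed the size rule under 7 of 13 alternatives; with doublets kept (1.09, 9.63 CPM) and free RNA subtracted (1.59, 9.86 CPM) it missed only the 10 CPM, with thinned nuclei (1.03, 29 UMIs) only the 50 UMIs, with equally weighted nuclei the fold (0.93), and in either sex alone both the fold and the UMIs. After thinning, the Dusp10 log2 difference was 1.67 in dentate granule-like nuclei and rested on 0 control UMIs in CA3-like and CA1-like nuclei, against 1 and 3. TMM scaling moved values by -0.13 (CA2-like) to 0.07. Depth limits most members: 29 of 120 pairs reached 50 UMIs and 10 CPM. Dusp16 fell short of these minimum counts only in CA2-like nuclei, with 38 UMIs in its higher library.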
